A study of Mus musculus with 6 samples.

Results

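The genes described here are 10 components of the Notch signalling pathway: the receptors Notch1, Notch2, Notch3 and Notch4, the ligands Dll4, Jag1 and Jag2, the DNA-binding factor Rbpj, and the target genes Hes1 and Hey1. They were taken by gene symbol, and all 10 were among the 13595 genes of the deposited table, and 9 were expressed highly enough to be tested. RNA was sequenced after poly(A) enrichment in 6 libraries of cultured primary CD31-positive liver cells from C57BL6/J mice aged 4 weeks, 3 libraries labelled male (replicates 4, 5 and 6) and 3 labelled female (replicates 4, 5 and 6). CD31 is a surface protein of endothelial cells, the cells that line blood vessels. Every library came from cells given 100 µM indoxyl sulfate, a tryptophan metabolite that activates the aryl hydrocarbon receptor (AHR), with hypoxia and nutrient deprivation for 6 hours. The contrast available is therefore that of the sex labels under this shared treatment, and untreated or DMSO cells were not analysed here. The labels do not say whether replicates are separate mice or separate wells, so the p-values measure the spread between these libraries, which may be technical.

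Notch signalling works by contact between neighbouring cells. A ligand of the Delta-like or Jagged family on one cell binds a Notch receptor on the next, the receptor is cut by an ADAM protease and then by gamma-secretase, and its intracellular domain enters the nucleus, where it joins Rbpj and a Mastermind-like coactivator to switch on genes such as Hes1 and Hey1. In endothelium Dll4 and Notch1 restrain sprouting and support arterial identity, Notch4 is largely an endothelial receptor, and Notch3 is best known from the mural cells around vessels. In the liver Jag1 and Notch2 are known for their role in bile duct formation. In GENCODE M21 the genes lie on chromosomes 2 (Notch1, Dll4 and Jag1), 3 (Notch2 and Hey1), 5 (Rbpj), 12 (Jag2), 16 (Hes1) and 17 (Notch3 and Notch4).

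The promoter windows of 3 members called lower in the libraries labelled female (Dll4, Notch1 and Notch4) are given first, with that of Nrarp, a feedback inhibitor of Notch described below, so that their sequence can be set beside the values. RefSeq sequence (GRCm38.p6) from 250 bases before to 50 bases after the annotated start was found by symbol for 8 of the 10 members, Hes1 and Hey1 being the others. Capitals mark, on either strand, TGGGAA, the core bound by Rbpj, GCGTG, the core bound by the AHR and one form of the hypoxia-inducible factor core, and ACGTG, the other form of that core. A match on the other strand reads as its reverse complement, such as CACGC for GCGTG.
Dll4, chr2:119325534-119325833, plus strand: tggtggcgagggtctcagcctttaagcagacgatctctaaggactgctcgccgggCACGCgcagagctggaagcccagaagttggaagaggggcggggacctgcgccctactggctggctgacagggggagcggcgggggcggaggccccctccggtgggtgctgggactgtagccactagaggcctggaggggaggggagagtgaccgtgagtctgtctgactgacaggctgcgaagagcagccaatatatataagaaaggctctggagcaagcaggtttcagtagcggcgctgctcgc
Notch1, chr2:26503773-26504072, minus strand: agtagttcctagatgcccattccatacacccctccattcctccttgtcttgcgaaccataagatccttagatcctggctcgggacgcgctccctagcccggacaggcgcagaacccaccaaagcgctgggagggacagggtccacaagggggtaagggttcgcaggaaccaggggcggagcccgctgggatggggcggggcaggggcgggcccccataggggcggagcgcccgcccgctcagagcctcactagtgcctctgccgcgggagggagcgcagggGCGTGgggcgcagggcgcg
Notch4, chr17:34564045-34564344, plus strand: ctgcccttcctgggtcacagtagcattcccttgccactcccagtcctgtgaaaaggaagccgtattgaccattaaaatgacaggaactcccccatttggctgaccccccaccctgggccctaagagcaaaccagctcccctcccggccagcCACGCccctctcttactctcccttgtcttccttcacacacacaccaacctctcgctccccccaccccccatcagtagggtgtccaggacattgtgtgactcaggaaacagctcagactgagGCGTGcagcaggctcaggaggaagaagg
Nrarp, chr2:25180508-25180807, plus strand: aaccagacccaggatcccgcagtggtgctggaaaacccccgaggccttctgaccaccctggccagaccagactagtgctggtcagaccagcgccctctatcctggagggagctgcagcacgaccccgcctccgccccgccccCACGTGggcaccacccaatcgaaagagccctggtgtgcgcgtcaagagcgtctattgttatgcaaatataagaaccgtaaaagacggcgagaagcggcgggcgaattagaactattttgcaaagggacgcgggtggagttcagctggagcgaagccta
The Dll4 and Notch1 windows each held 1 match to GCGTG and the Notch4 window held 2, with 0 matches to TGGGAA in these 3. In the Nrarp window the capitals are a palindrome in which both strands match ACGTG, counted as 1 match. Over all 32851 promoter windows of the same length, 25.6% held TGGGAA, 32.4% held GCGTG and 19.6% held ACGTG. The GCGTG core was also found in the windows of Notch2, Notch3, Jag1 and Jag2, so it occurred in members with and without a call. The 2 annotated Rbpj windows, which overlap, held 2 matches and 1 match to TGGGAA. These matches describe letters in a window and are not evidence of binding.

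The libraries labelled male held 27811890 to 31189363 reads over the listed genes and those labelled female held 22303270 to 25329421, so depth moved with the label. The values are normalized read counts, that is, reads divided by 1 factor per library, with 1 read worth 0.0353 to 0.0475. Among the label checks, the X-linked RNA Xist was at 234 to 324 in the libraries labelled female and at most 0.458 in those labelled male, but 4 Y-linked genes were read in every library. Ddx3y was at 48.5 to 57.7 in the former and 47.2 to 76.3 in the latter, and Uty was at 22.2 to 27.7 and 23.7 to 32.0. Eif2s3y, at 29.4 to 30.2 against 55.3 to 61.2, and Kdm5d, at 17.6 to 20.8 against 30.7 to 37.5, were lower in the libraries labelled female. Y-linked transcripts in libraries labelled female go against the label, and every direction below rests on these labels. Male replicate 4 stood apart from the others of its group, with a chi-square statistic per gene, near 1 for sampling alone, of 43.6 and 45.4 against male replicates 5 and 6, which gave 5.98 between themselves. Of 12568 genes tested with limma, 69.3% differed between the labels at an adjusted p under 0.05, and 34.6% lay lower and 34.6% higher under the female label.

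The labelled cell type was checked against marker genes. The background for each count is the 34.6% of tested genes called lower and the 34.6% called higher. In bulk RNA, fewer cells of a type and less RNA per cell cannot be told apart. Of the 20 endothelial markers, 17 were tested, of which 14 fell and 2 rose from male to female label, and their summed value was 2513 to 2614 in the libraries labelled male against 1322 to 1385. Pecam1, which encodes CD31, was at 405, 391 and 423 against 73.5, 73.8 and 74.5. The tight junction gene Cldn5 was at or under 0.883 in every library, and the sinusoidal markers Clec4g, Fcgr2b and Stab2 were at or under 0.415. Of the 10 sinusoidal markers, 4 were tested, with 2 higher (Gata4 and Maf) and 2 lower (Lyve1 and Stab1), and sums of 496 to 534 against 46.1 to 47.7. Lyve1 was at 470 to 513 against 4.37 to 5.48 and made up most of the sum under the male label, whereas Gata4, at 3.67 to 3.85 against 31.2 to 32.9, did so under the female label. The 18 stellate and mural markers, of which 15 were tested, moved both ways, with 5 higher and 10 lower and sums of 2902 to 3740 against 3575 to 4294. Of the 7 mesothelial markers, 6 were tested, with 5 higher and 1 lower, and sums of 117 to 120 against 423 to 453. Of the 10 cholangiocyte markers, 7 were tested, with 1 higher and 5 lower, and sums of 1650 to 2498 against 514 to 616, while their marker Epcam was at or under 0.522. Hepatocyte markers summed to 8.22 or less in any library and macrophage markers to 14.4 or less, with Vsig4, C1qa and Cd5l at or under 0.0763. The part of these marker differences in the Notch results was not tested.

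Of the 4 receptors, Notch1 and Notch4 fell by similar proportions under the female label, Notch2 differed slightly and Notch3 had no call. Notch1 had a normalized read count of 111, 90.1 and 92.9 in the libraries labelled male and 45.6, 53.9 and 51.7 in those labelled female. Each library labelled female lay below each labelled male. The difference was a log2 fold change of -0.94 with a standard error of 0.10 (adjusted p 4.88e-05, limma), on the scale of log2(value + 1) used for each fold change here, and the mean in the libraries labelled female was 51.4% of that in the others. Notch4 was at 32.8, 33.8 and 34.8 against 19.4, 16.0 and 14.7, again without overlap. Its log2 fold change was -0.98 with a standard error of 0.11 (adjusted p 5.93e-05, limma), with a mean of 49.4% of that in the libraries labelled male.

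Notch2, the receptor with the most RNA per length, was at 128, 127 and 131 in the libraries labelled male and 114, 112 and 118 in those labelled female. The groups did not overlap, but the difference was small, with a log2 fold change of -0.17 with a standard error of 0.05 (adjusted p 0.0238, limma). This call was lost with the replicate number as a block (limma adjusted p 0.0618), under quantile normalization (0.136) and without male replicate 6, female replicate 4 or female replicate 5 (0.0858, 0.0711 and 0.106). A share of 3.86% of the 50-base words of the Notch2 transcript also occurs in transcripts of other genes, so a small part of its reads could be placed elsewhere, and its exons overlap Gm42820 on the same strand.

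Notch3 was at 53.7, 26.7 and 27.4 in the libraries labelled male and 37.0, 37.4 and 34.0 in those labelled female. Male replicate 4 was above every library labelled female and male replicates 5 and 6 were below every one of them. With all 6 libraries the log2 fold change was 0.08 with a standard error of 0.23 (adjusted p 0.768, limma). Without male replicate 4 it was 0.40 (limma adjusted p 0.000484) and Notch3 was then called higher in the libraries labelled female, whereas without male replicate 5 or male replicate 6 it was -0.087 and -0.067 with no call. The smooth muscle genes Acta2 and Tagln stood higher in the same library, at 134 for Acta2 in male replicate 4 against 56.4 and 45.9 in replicates 5 and 6, and at 83.6 for Tagln against 40.2 and 32.5. Others of the stellate and mural list were higher there too, among them Cnn1 (8.87 against 3.97 and 4.03). Col1a2 (1089 against 853 and 870) and Col3a1 (1553 against 1115 and 1130) were as well. The list moved both ways in male replicate 4, as Rgs5 was lower (10.9 against 18.5 and 21.2). Des was also lower (6.97 against 9.11 and 8.90), and Pdgfrb lay at 129 against 133 and 136. In the libraries labelled female Acta2 was at 1513 to 1887 and Tagln at 900.3 to 1179, while Notch3 was at 34.0 to 37.4. The part of these genes in the Notch3 value was not tested.

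**Figure D1:**
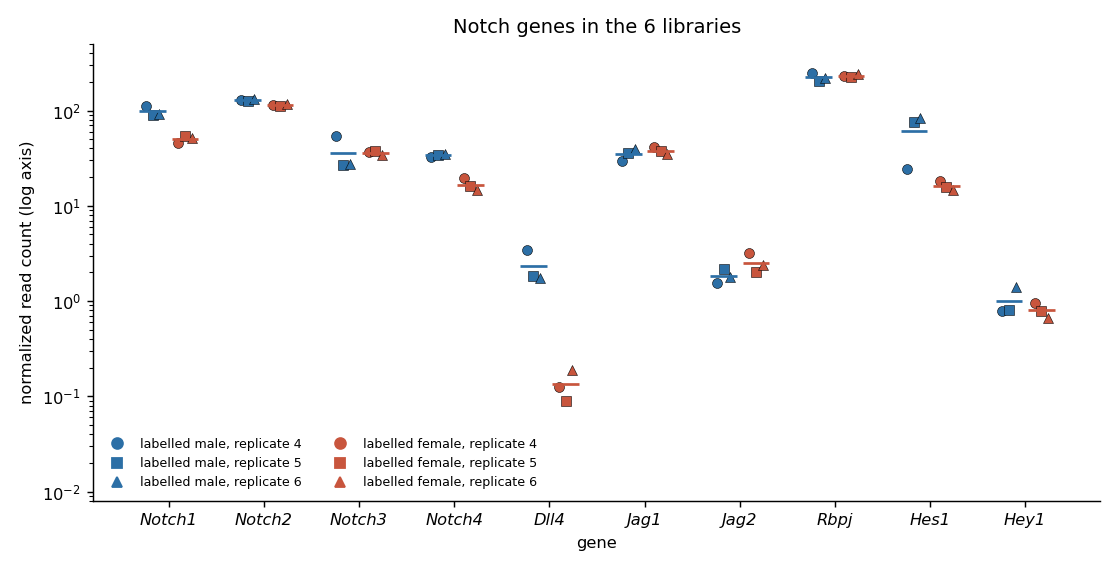
Normalized read count on a log axis for each of the 10 Notch genes in the 6 libraries, with 1 symbol per library and a bar at the group mean. Notch1, Notch2, Notch4, Dll4 and Hes1 lie lower in each library labelled female than in each labelled male, and male replicate 4 stands away from male replicates 5 and 6 for Notch3 and Hes1.

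Levels of different genes were compared per kilobase of the longest coding transcript. Per kilobase, the receptors in the libraries labelled male were ordered Notch2 (12.2 ± 0.207, SD, n = 3), Notch1 (10.3 ± 1.19), Notch4 (5.13 ± 0.147) and Notch3 (4.48 ± 1.92). Notch4 and Notch3 did not differ there beyond their spread. In the libraries labelled female the order was Notch2 (10.9 ± 0.271), Notch1 (5.31 ± 0.456), Notch3 (4.51 ± 0.233) and Notch4 (2.54 ± 0.369), and the ranges of these 4 did not overlap. As a share of the summed receptor RNA per kilobase, Notch2 made up 34.3%, 40.2% and 40.3% in the libraries labelled male and 46.8%, 45.5% and 48.5% in those labelled female. Notch1 made up 32.9%, 31.6% and 31.6% against 20.7%, 24.2% and 23.6%. Notch4 was at 14%, 17.1% and 17.1% of the receptor RNA against 12.7%, 10.4% and 9.66%. The Notch3 share was 18.8% in male replicate 4, 11.1% in both other libraries labelled male and 19.9%, 19.9% and 18.3% in those labelled female. The shares of Notch1 and Notch4 thus stood lower and that of Notch2 higher in each library labelled female than in each labelled male. The summed receptor RNA per kilobase was 30.0 to 35.6 in the libraries labelled male and 23.1 to 23.5 in those labelled female.

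**Figure D2:**
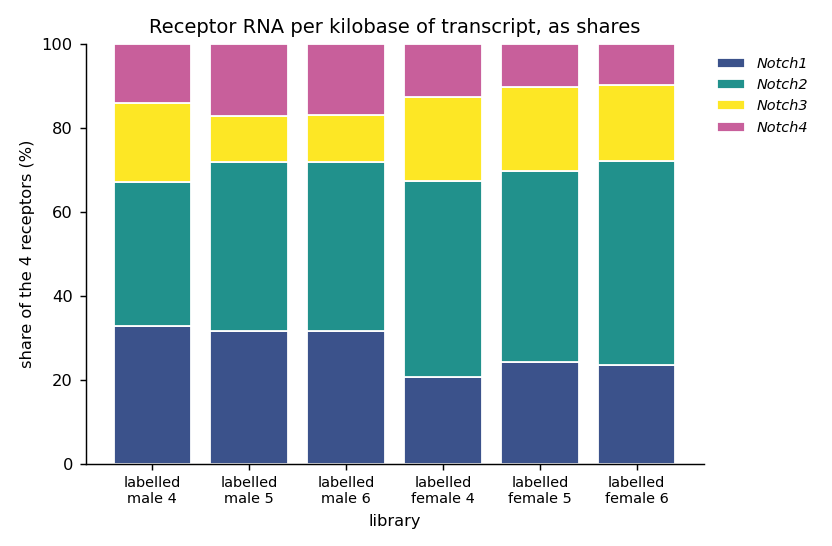
Share of each Notch receptor, in percent, in the summed receptor RNA per kilobase of transcript, with 1 stacked bar per library. Notch2 holds 45.5% to 48.5% in the libraries labelled female and 34.3% to 40.3% in those labelled male, and the share of Notch3 in male replicate 4 (18.8%) is close to its shares in the libraries labelled female.

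Among the ligands, Dll4 was far lower in the libraries labelled female, whereas Jag1 and Jag2 had no call. Dll4, the Delta-like ligand of endothelial cells, was at 3.44, 1.83 and 1.77 in the libraries labelled male, from 83, 48 and 50 reads. It was at 0.125, 0.0884 and 0.190 in those labelled female, from 3, 2 and 4 reads, and the groups lay far apart. From the summed reads the ratio of male to female was 17.3 (95% exact interval 8.93 to 38.5, counting error only). The log2 fold change was -1.53 with a standard error of 0.19, which understates the ratio because 1 is added to these low values, and with 0.1 added it was -3.34. Dll4 entered the test through the libraries labelled male alone, since it was under 1 in each of the others, so its p from that test is not given. With no filter, over all 13595 listed genes, its adjusted p was 0.000201 (limma). edgeR on the recovered reads gave a log2 fold change of -4.09.

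Jag1, a Jagged ligand shared by endothelial, mural and biliary cells, was at 29.5, 35.8 and 39.7 in the libraries labelled male and 41.5, 37.5 and 35.1 in those labelled female. The groups overlapped, with a log2 fold change of 0.12 with a standard error of 0.12 (adjusted p 0.364, limma). Jag2, the other Jagged ligand, was weakly expressed, at 1.53, 2.17 and 1.80 against 3.20, 2.03 and 2.37. Its groups overlapped too and its log2 fold change was 0.31 with a standard error of 0.15 (adjusted p 0.104, limma). Under quantile normalization Jag2 passed the threshold as higher (0.37, limma adjusted p 0.0482).

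The balance of ligands within a library does not depend on how libraries were scaled. The ratio of Dll4 to Jag1 was 0.117, 0.0511 and 0.0445 in the libraries labelled male and 0.00300, 0.00236 and 0.00541 in those labelled female. The mean log2 ratio was lower by 4.25 there, with all libraries labelled female below all labelled male. With 1 added to both values it was lower by 1.65, again in the same direction. A two-sided exact permutation test gave p = 0.1, the smallest value that 3 against 3 libraries allow, so that no ratio could reach 0.05. In all, 12 such ratios were computed, and each has an exact permutation p of 0.1, also after Benjamini-Hochberg adjustment. Per kilobase, Jag1 (6.24 ± 0.912 in the libraries labelled male and 6.78 ± 0.569 in the others, SD, n = 3) was the leading ligand in both groups. In the libraries labelled male Dll4 (0.626 ± 0.254) came above Jag2 (0.360 ± 0.0629), and in those labelled female Jag2 (0.496 ± 0.117) came above Dll4 (0.0358 ± 0.0138), in each case without overlap.

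Rbpj, which carries the Notch intracellular domain to DNA, was at 250, 203 and 219 in the libraries labelled male and 230, 224 and 244 in those labelled female. The groups overlapped and the log2 fold change was 0.06 with a standard error of 0.08 (adjusted p 0.541, limma). It was called higher without male replicate 4 (0.14, limma adjusted p 0.0348) and under quantile normalization (0.17, limma adjusted p 0.0493). Of the 50-base words of the Rbpj transcript, 23.8% also occur in transcripts of other genes, so its value is uncertain to that extent.

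The targets Hes1 and Hey1, both repressors of transcription, did not share a pattern. Hes1 was at 24.6, 75.8 and 83.3 in the libraries labelled male and 18.3, 15.7 and 14.8 in those labelled female. The groups did not overlap, but male replicate 4 lay much nearer to the libraries labelled female than to male replicates 5 and 6. The log2 fold change was -1.67 with a standard error of 0.40 (adjusted p 0.00518, limma) and the mean was 26.6% of that in the libraries labelled male. Without male replicate 4 the log2 fold change was -2.23 with a standard error of 0.09 (adjusted p 2.94e-08, limma). With any other single library left out it lay between -1.76 and -1.37 and stayed past the threshold.

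Hey1 was near the detection limit, at 0.788, 0.801 and 1.41 in the libraries labelled male and 0.955, 0.796 and 0.665 in those labelled female, from 14 to 40 reads. The groups overlapped, and Hey1 was the 1 member that did not reach the filter of a value of at least 1 in 3 libraries. Without the filter its log2 fold change was -0.14 with a standard error of 0.14 (adjusted p 0.413, limma), and edgeR on the recovered reads gave -0.33 (quasi-likelihood adjusted p 0.389). From the summed reads the ratio of male to female was 1.25 (95% exact interval 0.878 to 1.80, counting error only). The interval leaves out the spread between libraries (19, 21 and 40 reads in those labelled male), so it does not set Hey1 apart from Hes1. The ratio of Hey1 to Hes1 was 0.0321, 0.0106 and 0.0170 in the libraries labelled male and 0.0522, 0.0507 and 0.0450 in those labelled female, a rise of 1.46 in mean log2 ratio without overlap (exact permutation p = 0.1).

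Per kilobase of transcript, Hes1 and Rbpj led the 10 genes in the libraries labelled male, at 41.7 ± 21.8 and 40.8 ± 4.41 (SD, n = 3), and their ranges overlapped. In those labelled female Rbpj stood first, at 42.4 ± 1.83, and Hes1, at 11.1 ± 1.25, overlapped with Notch2. Hey1 was among the 3 lowest in both groups, at 0.413 ± 0.147 and 0.332 ± 0.0599 per kilobase, and in the libraries labelled male it overlapped with Dll4 and with Jag2.

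Across the 9 tested members, limma called 5 lower and 0 higher under the female label, and 0 were higher at an unadjusted p under 0.05 or with edgeR or DESeq2. The 5 include Dll4, whose call follows in part from the filter. With no filter limma also called 5 lower, with 33.1% of all listed genes called lower. edgeR on the recovered reads also called 5 members lower, with 68.0% of its tested genes called in either direction and 34.5% called lower. The limma background was 69.3% of tested genes called in either direction and 34.6% called lower, so that calls as such were common. The median log2 fold change of the tested members was -0.17, against 0.01 for all tested genes. This median counts Dll4, which passed the filter through the libraries labelled male alone, so it is a description only. Groups did not overlap for 5 of the 10 members, against 74.1% of tested genes. The authors' deposited table has a false discovery rate under 0.05 for 3 of the 10 members and for 25.8% of its genes. In the authors' deposited table the fold change of female against male is -1.94 for Notch1 (false discovery rate 0.0415), -16.9 for Dll4 (0.00807) and -3.76 for Hes1 (6.11e-06), and that of Notch4 is -2.02 (0.0939).

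**Figure D3:**
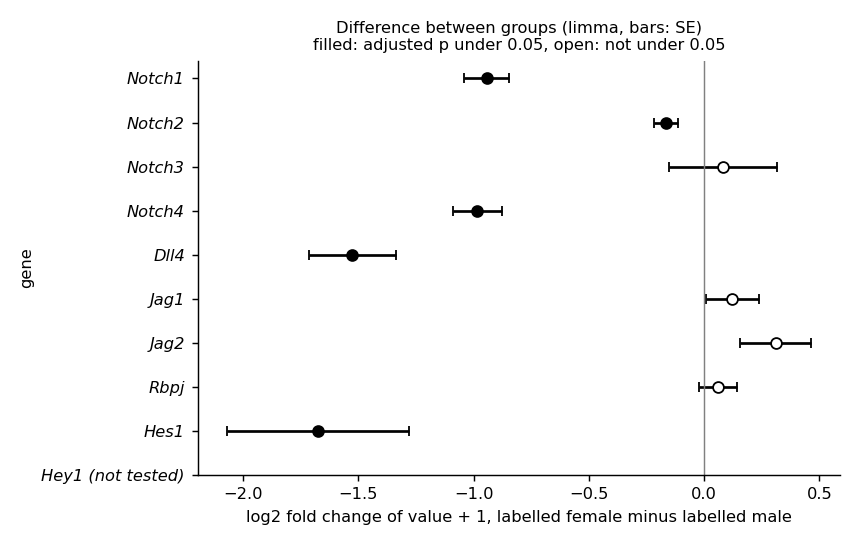
Log2 fold change of the value plus 1, libraries labelled female minus those labelled male, for each tested member, with the standard error as a bar and a filled point where the limma adjusted p was under 0.05. The 5 filled points lie between -1.67 (Hes1) and -0.17 (Notch2), and the 4 open points lie between 0.06 (Rbpj) and 0.31 (Jag2).

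Because Pecam1 itself stood lower in the libraries labelled female, each member was also set against Pecam1 within its library. The ratio of Notch1 to Pecam1 was 0.274, 0.230 and 0.220 in the libraries labelled male and 0.620, 0.731 and 0.693 in those labelled female. That of Notch4 was 0.0810, 0.0865 and 0.0822 against 0.264, 0.217 and 0.198, so that both receptors stood higher relative to Pecam1 where they stood lower per library. For Jag1 the ratio was 0.0729, 0.0917 and 0.0937 against 0.564, 0.508 and 0.472. The Hes1 ratio was 0.0606, 0.194 and 0.197 against 0.249, 0.213 and 0.198, and the highest library labelled male and the lowest labelled female nearly met. Dll4 was the exception among the 10 members, with ratios of 0.00849, 0.00468 and 0.00417 against 0.00169, 0.00120 and 0.00255, a mean log2 ratio lower by 1.67. With 1 added to both values the difference for Dll4 was 0.92 in the other direction, but 1 exceeds each Dll4 value in the libraries labelled female. The ratio of male to female was 5.5002 for the Pecam1 means and 17.3 for the summed Dll4 reads given above. The interval given with the latter covers counting error only, from 9 reads under the female label, so the spread between libraries is not in it. By the ratio of male to female means, without a pseudocount, Pecam1 dropped more than each member but Dll4. Among other endothelial markers this ratio was 0.756 for Eng, 1.30 for Emcn, 2.38 for Cdh5, 10.1 for Tie1 and 77.2 for Vwf. The comparison therefore holds for Pecam1 alone and may differ against another marker.

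The wider pathway was followed through 8 lists of other Notch components with 74 genes, of which 66 were tested, 18 called higher and 31 called lower under the female label. Their median log2 fold change was -0.23, against 0.01 for all tested genes, and 74.2% were called against 69.3% of tested genes. Of all tested genes 34.6% were called lower and 34.6% higher, which is the background for each list count below. Of the genes named below, Dlk1, Dlk2, Mfap5, Lfng, Mfng and Nrarp were under 1 in every library of 1 group and passed the filter through the other alone. Mfap2 and Hey2 reached 1 in only 1 library labelled female, so they too passed it through the libraries labelled male. Their call follows in part from that filter, so no p is given for them and the list counts are a description only.

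Of the 8 other ligands, 5 were tested and each was called, 2 higher and 3 lower. The matrix proteins Mfap2 and Mfap5, which can bind Notch, had opposite directions. Mfap2 was at 21.4, 28.9 and 27.4 in the libraries labelled male and 0.540, 1.24 and 0.712 in those labelled female (log2 fold change -3.88). Its ratio of male to female from the summed reads was 31.5 (95% exact interval 24.2 to 41.9, counting error only). Mfap5 was at 0.0829, 0.229 and 0.141 against 7.01, 5.57 and 5.89 (log2 fold change 2.63), with a ratio of male to female of 0.0247 from the summed reads (95% exact interval 0.0126 to 0.0436, counting error only). Egfl7, an endothelial secreted protein that antagonises Notch, fell from a mean of 52.7 to 2.79 (log2 fold change -3.81), and the Delta-like homologue Dlk2 had means of 0.340 and 3.94 (1.87). Dlk1 had a log2 fold change of -0.72, and Dll1, a further Delta-like ligand, was under the filter at 1.20, 0.877 and 1.17 against 0.415, 0.354 and 0.142. Dlk1 and Dll1 were chosen after their values were seen. Dll3 and Dner were not analysed here.

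Of the 10 genes for cleavage of the receptor, 9 were tested and 5 were called lower. The protease gene Adam17 fell from a mean of 146 to 94.97 (log2 fold change -0.61), and Psen2, a gamma-secretase gene, fell from 22.2 to 15.5 (-0.49). Among the 6 genes for sugar transfer to the receptor, all tested, 2 were higher and 3 lower. Lfng and Mfng, the Fringe enzymes that tune which ligand a receptor answers to, had opposite directions. Lfng was at 0.290, 0.534 and 0.388 in the libraries labelled male and 1.62, 1.503 and 1.99 in those labelled female (log2 fold change 0.95), with a ratio of male to female of 0.240 from the summed reads (95% exact interval 0.157 to 0.357, counting error only). Mfng had 44, 47 and 37 reads against 1, 0 and 2, a ratio of male to female of 36.8 from the summed reads (95% exact interval 12.3 to 180.6, counting error only). The O-GlcNAc transferase Eogt rose (log2 fold change 0.93) and Pofut1, which adds O-fucose, fell (-0.28).

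Ligand endocytosis, which pulls on the bound receptor, had 8 tested genes, with 3 higher and 3 lower. The ubiquitin ligase Mib1 rose from 58.6, 37.6 and 36.6 to 66.8, 64.1 and 70.5 (log2 fold change 0.62, limma adjusted p 0.00879), with male replicate 4 again the nearest to the libraries labelled female. The adaptor Epn1 rose by a log2 fold change of 0.32. The third called higher, Epn2 (0.15), lost its call in 10 of the 15 alternatives, and was chosen after its values were seen. The ligases Neurl3 (-1.28) and Neurl1b (-0.68) fell.

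The coactivators of the Notch intracellular domain had 8 tested genes, with 5 lower and 0 higher with limma, 0 higher with edgeR or DESeq2 and 0 higher at an unadjusted p under 0.05. Under quantile normalization or without male replicate 4, 1 was called higher, the acetyltransferase gene Ep300. The Mastermind-like genes led this list. Maml3 was at 30.9, 39.3 and 41.6 in the libraries labelled male and 6.43, 6.06 and 6.13 in those labelled female (log2 fold change -2.40, limma adjusted p 7.19e-07). Maml1 was at 169, 154 and 166 against 67.8, 67.4 and 65.7 (-1.27, limma adjusted p 5.47e-07). The third family member, Maml2, fell by 0.71 on the log2 scale and was chosen after its values were seen. The corepressors of Rbpj, with 14 tested genes, had 4 higher and 5 lower. Tle2 fell (log2 fold change -1.62) and Tle4 rose (0.59), both being Groucho-family corepressors, and of the histone deacetylases Hdac1 fell (-0.65) and Hdac2 rose (0.50).

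Of the 12 inhibitors and turnover genes, 11 were tested, with 4 higher and 4 lower. Dtx4, a Deltex ubiquitin ligase, was at 142, 120 and 129 in the libraries labelled male and 21.4, 22.3 and 25.8 in those labelled female (log2 fold change -2.44, limma adjusted p 1.87e-07). Dtx3l fell by 1.87 on the log2 scale. Fbxw7, which marks the Notch intracellular domain for degradation, rose from a mean of 11.5 to 23.1 (log2 fold change 0.94), and Numbl, a homologue of the Notch inhibitor Numb, rose from 43.9 to 77.5 (0.81).

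Of the 8 other target genes, 5 were tested and each was called, 2 higher and 3 lower. Nrarp, the feedback inhibitor whose promoter is printed above, was at 13.9, 12.1 and 11.2 in the libraries labelled male and 0.623, 0.663 and 0.950 in those labelled female. Its log2 fold change was -2.94 with a standard error of 0.13, and from the summed reads the ratio of male to female was 16.7 (95% exact interval 12.6 to 22.7, counting error only). Unlike Hes1, Nrarp did not stand nearer to the libraries labelled female in male replicate 4. Hey2, the relative of Hey1, fell from 1.95, 1.60 and 2.12 to 0.913, 1.02 and 0.522 (log2 fold change -0.68) and was chosen after its values were seen. Its ratio of male to female from the summed reads was 2.29 (95% exact interval 1.68 to 3.18, counting error only). Cdkn1a, a cell cycle inhibitor that many pathways regulate, fell by 1.05 on the log2 scale. Myc and Ccnd1, growth genes with many regulators besides Notch, rose by log2 fold changes of 1.84 and 0.70. Myc was at 81.5, 35.5 and 30.6 in the libraries labelled male and 165, 152 and 172 in those labelled female. Heyl held at most 3 reads in any library, and Hes5 and Hes7 were not analysed here.

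**Figure D4:**
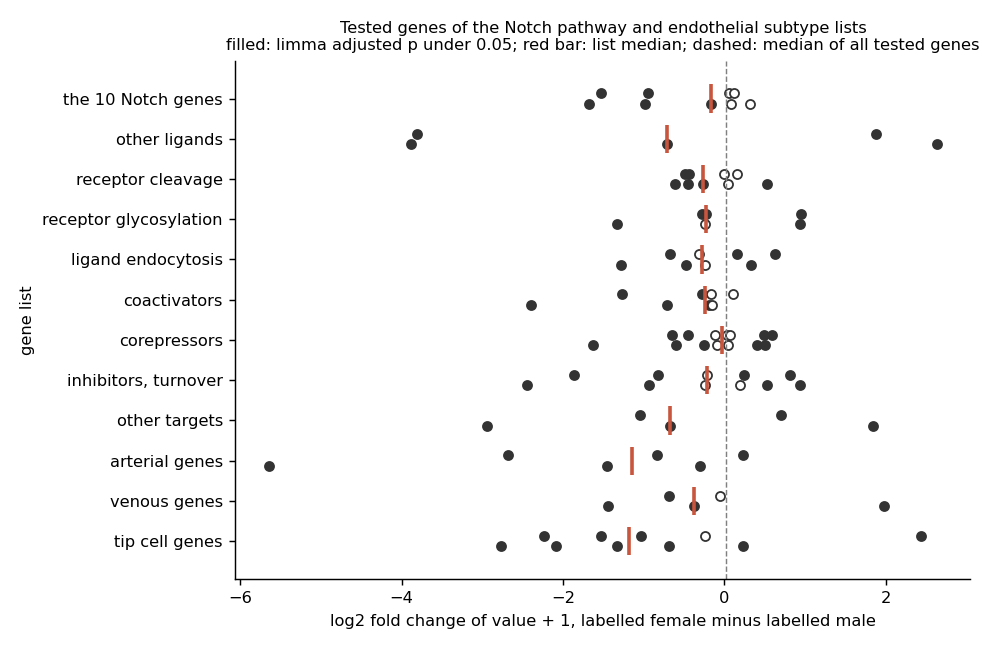
Log2 fold change of the value plus 1, libraries labelled female minus those labelled male, for each tested gene of the Notch lists and of 3 endothelial subtype lists, filled where the limma adjusted p was under 0.05, with the list median as a red bar and the median of all tested genes (0.01) dashed. The tested genes among the 10 Notch genes, Dll4 included, have a median of -0.17. The coactivators reach from Maml3 (-2.40) to slightly above 0, and the other ligands and the other targets spread widely to both sides.

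Endothelial subtype genes were included because Notch is known to favour arterial over venous identity and to restrain tip cells, the leading cells of a sprout. Of the 10 arterial genes, 6 were tested, with 1 higher and 5 lower and a median log2 fold change of -1.15. Among all tested genes 34.6% were called lower and 34.6% higher, and this background holds for the venous and tip cell lists too. Gja4, a connexin of arterial endothelium, was at 260, 325 and 356 in the libraries labelled male and 6.31, 4.38 and 5.18 in those labelled female (log2 fold change -5.64, limma adjusted p 3.05e-08). The kinase gene Bmx fell by 2.69 on the log2 scale. Unc5b, a netrin receptor, rose slightly (log2 fold change 0.23, limma adjusted p 0.0268), a call lost without male replicate 5, male replicate 6, female replicate 4 or female replicate 5. Gja5 was not analysed here, and Sox17 was at or under 0.540 in every library.

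Venous genes moved both ways, with 1 higher and 3 lower of 5 tested from a list of 6, and a median of -0.37. Nr2f2, a regulator of venous identity, fell from a mean of 310 to 114 (log2 fold change -1.44, limma adjusted p 4.14e-06), and Flt4 fell (-0.69). Nrp2, a coreceptor of venous and lymphatic endothelium, rose from 30.0 to 120 (1.98). The 12 tip cell genes, which include Dll4 and share Unc5b, Cxcr4 and Flt4 with the lists before, had 10 tested, with 2 higher and 7 lower and a median of -1.18. Flt1, a decoy receptor for VEGF, fell from a mean of 87.2 to 12.0 (log2 fold change -2.76, limma adjusted p 3.18e-08) and Cd34 fell (-2.23), whereas Esm1 rose from 4.71 to 29.6 (2.43, limma adjusted p 3.72e-06). Arterial, venous and tip cell lists thus all had negative medians, as did the endothelial markers as a whole (-1.53).

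Male replicate 4 mattered for several members, and each of the 6 libraries was therefore left out in turn. Notch1 kept its call throughout, with log2 fold changes from -1.0 to -0.85, as did Notch4, from -1.09 to -0.90. Dll4 kept it when a library labelled female was left out (-1.56 to -1.496). That is no check of its call, since Dll4 passes the filter through the libraries labelled male alone. With any library labelled male left out Dll4 fell below the filter and was not tested. The number of members called lower was then 4 without male replicate 4, 4 without male replicate 5 and 3 without male replicate 6, against 5 with all libraries. Without male replicate 4, Notch3 and Rbpj were called higher, so that 2 members were higher in place of 0. Of all genes tested in that fit, 38.9% were called higher and 35.9% lower. Without male replicate 5, 33.1% and 30.4% were, and without male replicate 6, 32.8% and 29.6%.

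**Figure D5:**
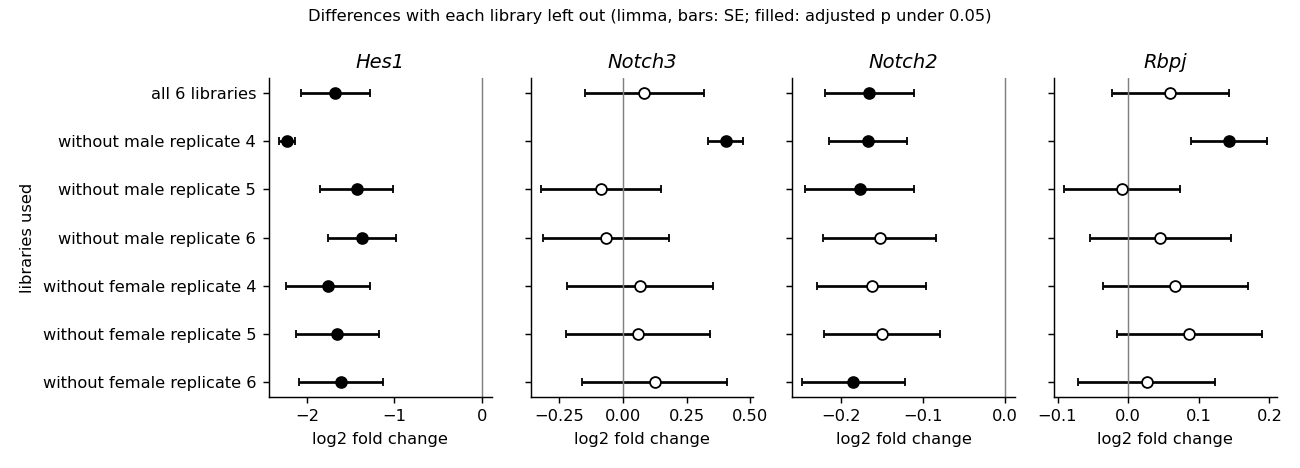
Log2 fold change, libraries labelled female minus those labelled male, of Hes1, Notch3, Notch2 and Rbpj with all 6 libraries and with each left out in turn, with the standard error as a bar and a filled point where the limma adjusted p was under 0.05; the panels have their own horizontal scales. Hes1 stays past the threshold in each row, Notch3 and Rbpj pass it without male replicate 4 alone (0.40 and 0.14), and Notch2 passes it in 4 of the 7 rows.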

How the data were processed

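Poly(A) RNA from 6 libraries was sequenced, and the table used here lists 13595 genes. The signal deposited per gene and library is a normalized read count, because all values (100%) were whole multiples of a column's lowest nonzero value within 0.01 read, and that division returned the reads. The submitters' processing notes name Bowtie2, RSEM, edgeR and the build mm39 without their roles, and the rule behind the listed genes is not given in the sources used here. Per the file headers, the authors also gave a score, the signed fold change of female against male, and p-value columns with a false discovery rate. Columns were matched to samples by title, and 0 columns were left over.

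The design allowed for counts or normalized values, and limma was used because the values are normalized. Genes that reached a value of 1 in 3 or more libraries (12568) entered limma 3.58.1 (R 4.3.3, trended eBayes) as log2(value + 1), with Benjamini-Hochberg adjustment over all of them at 0.05. edgeR 4.0.16 (quasi-likelihood) and DESeq2 1.42.0 were run on the recovered reads as alternatives. Further alternatives were median-ratio (RLE) and TMM factors, quantile normalization, no filter, a value of at least 1 in every library, a pseudocount of 0.1, the replicate number as a block, and each library left out in turn. The scripts were tested on simulated reads. The members and lists were chosen with earlier results of these data known. Besides the members, the rule named the 2 largest called increases and decreases of each list, of which 1 result is not reported here. Transcript lengths and shared 50-base words came from GENCODE M21 (GRCm38), and no strand setting is given in the sources used here, so reads of Notch1, Notch3 and Dll4 cannot be told apart from those of annotated genes that overlap their exons on the opposite strand.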

Additional observations from a re-analysis of the deposited data

How the results depend on the processing

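Of 134 values recomputed for the members, 121 kept direction and call. Notch2 lost its call with the replicate block (log2 fold change -0.17, limma adjusted p 0.0618), under quantile normalization (-0.10) and in 3 of the 6 fits that left out a library (-0.18 to -0.15 over all 6). Under quantile normalization Jag2 (0.37) and Rbpj (0.17) were called higher, so that 2 members were, and the median of all tested genes was then 0.08 against 0.01. Notch3 was at -0.0027 with DESeq2 and ran from -0.087 to 0.40 over the fits that left out a library, and Rbpj from -0.0087 to 0.14. Over these fits the members called lower numbered 3 to 5 and those called higher 0 to 2. With 1 added to both values, the Dll4 to Pecam1 log2 ratio was higher by 0.92 in the libraries labelled female, where 1 exceeds every Dll4 value. The other causes were not tested, except that Dll4 is not tested where fewer libraries reach 1. The replicate block called 8314 genes against 8704 and changed no other member's call. Same-numbered libraries did not deviate together (correlations across genes of -0.09, -0.03 and -0.17). With 3 libraries per group this does not settle whether the numbers pair the libraries. The count of all genes called ran from 7373 to 9113 over the 15 alternatives. Other genes without a call that reversed were Furin (0.053 under quantile normalization, -0.050 to 0.054 over the fits that left out a library), Ephb4 (0.017 under quantile normalization, -0.21 to 0.21 over those fits, the latter called, without male replicate 4) and Aph1a (-0.020 to 0.087 over those fits). Of 549 values recomputed for the 38 other genes that the rule chose, 545 kept direction and call. Over all listed genes outside the members, 1169 of 1230 values did, 42 lost a call and 12 gained one; Epn2 and Dtx2 lost theirs in 10 of 15 alternatives each, Tle3 in 7 and Kat2b in 4. Depth limits Dll4 and Mfng, with 9 and 3 reads over the 3 libraries labelled female.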
